A study of Homo sapiens with 9 samples.

Results

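Long B compartment blocks were followed in Hi-C maps of IMR90 cells, a line of normal human lung fibroblasts, with and without oncogenic RAS-induced senescence (RIS). Contacts of 40 kb bins were summed to 120 kb bins, and each of the 22 autosomes was given a compartment score from the mean of the growing libraries, positive on the gene-dense side. A long B block was an unbroken run of at least 25 bins with a score below 0, so at least 3.0 Mb. Of 2831 runs of 1 sign, 106 met this rule, and they held 3988 of 22353 scored bins, or 17.8%. They measured 3.0 to 9.84 Mb with a median of 4.02 Mb. The other runs used for comparison were 635 short B runs of 5 to 24 bins and 564 A runs of 5 bins or more.

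The A compartment holds most active, gene-rich chromatin, and the B compartment holds most silent, late-replicating and gene-poor chromatin. Long B regions are AT-rich, often lie at the nuclear lamina, and carry few genes, many of them very long and neuronal. In oncogene-induced senescence of fibroblasts the lamina is known to weaken and heterochromatin to gather in foci in the nuclear interior, so the contacts that B blocks keep with themselves, with each other along a chromosome and with B blocks of other chromosomes are separate questions. Hi-C cuts crosslinked chromatin with HindIII, joins ends that lie close together and counts the joined pairs, and it does not tell both copies of a chromosome apart.

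All cells carried the ER:HRAS(G12V) construct, a RAS oncogene fused to the oestrogen receptor. The 3 growing libraries received no tamoxifen, and growing replicate 3 carried an added MSCV vector. The 2 RIS libraries came from cells given 100 nM 4-hydroxytamoxifen for 6 days. The paper calls the Hi-C libraries of a group biological replicates. Nothing in the labels says whether they came from separate cultures, so p-values measure only the spread between these libraries. A further RIS library was left out by the study for low complexity.

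The libraries held 154318992, 175410468 and 180775315 recovered contacts in growing cells and 109967509 and 150689993 in RIS. Contacts between chromosomes took 9.11%, 9.36% and 8.81% of the balanced total in growing cells and 11.6% and 11.5% in RIS. Contact values below divide the contact seen by the contact expected in the same library, from its mean at that distance on that chromosome or, between chromosomes, from its mean over all pairs on different chromosomes, so this general shift is divided out of them. They are log2 observed/expected, 0 being the library's own mean. Shares in percent and balanced contact per pair of bins are not divided in this way and are named as such. Blocks shared 468797 to 1015141 contacts between chromosomes per library, with a median of 60 to 124 per pair of blocks. Duplicates were many in growing replicate 3 and RIS replicate 2 and few in the others, and dangling ends were more frequent in both RIS libraries. The part of dangling ends in the results was not tested.

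The rule did not use base composition, in which the classes of runs differed. Median GC content was 36.8% in long B blocks, 39.5% in short B runs and 41.8% in A runs. Blocks ranged from 34.3% to 49%, and 58 of them held 37% or less, 30 held between 37 and 40%, and 18 held more than 40%. These classes were set after values had been seen. Protein-coding genes numbered 1.28 per Mb in the median block, 3.13 in short B runs and 7.23 in A runs, but gene density gave the score its sign, so this is no separate finding. Sites of HindIII (AAGCTT) had median densities of 31.9, 31.0 and 28.5 per 100 kb, and ranged from 19.0 to 40.2 among the blocks.

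Windows of 246 bases show what the GC-rich end of this range looks like at the places where the assay reads. Each lies in the middle 120 kb of its block, is centred on the HindIII site whose window comes closest to the GC content of the block, and is printed 5′ to 3′ on the plus strand of hg19 with the site in capitals. They come from the 2 GC-rich blocks whose contact with blocks of other chromosomes was lowest in RIS relative to growing. The positions are chr19:52523345-52523590 in an intron of ZNF614, and chr22:48657977-48658222 between genes and 227.1 kb from TAFA5. Their GC contents are 47.2% and 50%.
Lowest difference, ZNF614 intron: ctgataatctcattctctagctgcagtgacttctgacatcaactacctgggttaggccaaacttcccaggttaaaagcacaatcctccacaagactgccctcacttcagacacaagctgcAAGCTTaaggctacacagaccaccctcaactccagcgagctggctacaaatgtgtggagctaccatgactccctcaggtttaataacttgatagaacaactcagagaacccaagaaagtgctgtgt
Second lowest difference, near TAFA5: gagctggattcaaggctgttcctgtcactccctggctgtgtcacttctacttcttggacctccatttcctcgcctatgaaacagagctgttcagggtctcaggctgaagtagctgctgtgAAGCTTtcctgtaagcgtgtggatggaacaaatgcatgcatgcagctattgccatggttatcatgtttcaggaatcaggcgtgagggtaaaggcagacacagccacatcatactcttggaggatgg

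The B label was checked with contacts between chromosomes, which took no part in the rule. Blocks met blocks of other chromosomes more than they met A runs of other chromosomes in 104, 104 and 105 of 106 cases in the growing libraries and in 103 of 106 in each RIS library. The block at chr17:66480001-70320000, which holds the kinase gene MAP2K6 and the lipid transporter genes ABCA8 and ABCA10, went against its label in every library. Its contact was −0.39, −0.38 and −0.28 with blocks against 0.53, 0.43 and 0.44 with A runs in growing cells, and −0.89 and −0.62 against 0.76 and 0.54 in RIS. The block at chr1:187440001-192000000 met both sides about equally, with a difference of −0.03 in growing cells and 0.07 in RIS on average. GC-rich blocks at chr19:50400001-54600000 and chr17:30720001-34560000 met other blocks more in growing cells, by 0.69 and 0.27, and A runs more in RIS, by a difference of −0.40 and −0.14.

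Scores of the same bins in single libraries stayed below 0 for 99.4%, 99.6% and 99.0% of bins in growing cells and for 97.5% and 97.9% in RIS. From the mean of both RIS libraries, 98.0% were below 0 and 60 of 106 blocks were still unbroken runs. Single growing libraries, of which the rule used the mean, broke fewer blocks and left 89, 92 and 76 unbroken, against 55 and 58 in the RIS libraries. Few bins thus crossed 0, although many blocks were interrupted. The blocks were chosen from growing libraries, so the count of breaks does not show that RIS had fewer long B runs. On its own scores, the RIS mean gave 101 long B runs with 3948 bins, against 106 and 3988 from the growing mean. These RIS runs held 3454 of the block bins. Over all scored bins, 48.97% were below 0 in the RIS mean and 54.7% in the growing mean.

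Contact between long B blocks of different chromosomes was higher in RIS. Over all 5289 pairs pooled, with no filter, it was 0.36, 0.52 and 0.43 in growing libraries and 1.11 and 1.14 in RIS. Both RIS libraries stood above all growing ones, and the gap between groups was several times the spread within either. The means were 0.43 ± 0.08 (SD, n = 3) and 1.13 ± 0.02 (SD, n = 2), a difference of 0.69, with p = 0.1 in a two-sided exact permutation test, the smallest that 3 against 2 libraries allow, so that no such test can pass 0.05. Among libraries with few duplicates the difference was 0.68, and among those with many it was 0.71. Each of these values rests on a single RIS library, and the latter on a single growing library as well.

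Contact among short B runs and among A runs, pooled over each class, did not show the same difference. Contact between short B runs of different chromosomes was 0.53, 0.56 and 0.53 in growing cells and 0.53 and 0.58 in RIS, which overlapped. Short B runs met long blocks of other chromosomes more in RIS, at 0.53 and 0.57 against 0.29, 0.37 and 0.32 (exact permutation p = 0.1), and limma called 26.0% of these pairs higher, against 15.0% of all. Contact between A runs of different chromosomes was lower in RIS, at 0.61 and 0.44 against 0.79, 0.71 and 0.74. Long blocks met each other less than short B runs did in every growing library, by −0.17, −0.04 and −0.10, and more in RIS, by 0.58 and 0.56, and this change in the difference had an exact permutation p of 0.1, again the smallest possible. Against A runs the difference turned in the same way, from −0.43, −0.19 and −0.32 to 0.50 and 0.70 (exact p = 0.1).

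**Figure D1:**
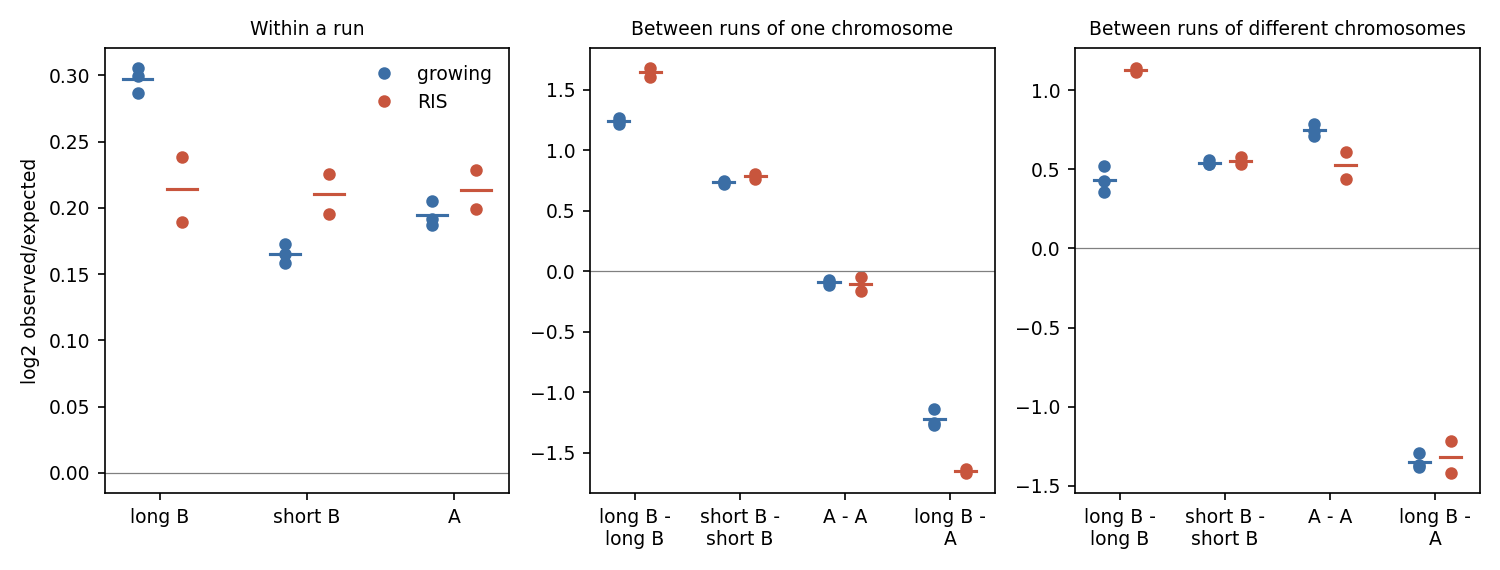
Contact per library within runs, between runs of one chromosome and between runs of different chromosomes, as log2 observed/expected. Each point is 1 library, growing in blue and RIS in red, and bars are group means. Long B blocks of different chromosomes lie at 0.36 to 0.52 in growing cells and at 1.11 and 1.14 in RIS, while short B runs overlap near 0.54.

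Single blocks and single pairs showed how general this was. Of the 106 blocks, 96 had a higher mean contact with blocks of other chromosomes in RIS and 10 a lower one, with changes from −1.19 to 1.47 and a median of 0.80. All RIS values lay outside the growing range in 90 of the 96 and in 7 of the 10, where over all 1305 runs of 5 bins or more 41.8% were higher and 27.0% lower without overlap in contact with the same blocks. In limma, 5067 of the 5289 pairs passed the filter of a mean balanced sum of at least 20. Of those tested, 2510 were called higher at an adjusted p under 0.05, or 49.5%, against 15.0% of all 65128 pairs of runs tested. Lower calls numbered 280, or 5.53%, against 8.55% of all. The median change was 0.67 among the blocks' pairs. Without RIS replicate 1 this median was 0.70, against −0.02 over all pairs of runs. Without RIS replicate 2 it was 0.64, against 0.05. With no filter, over 799700 pairs, limma called 0, while 84633 had an unadjusted p under 0.05. Each block enters about 100 pairs, so the pairs are not independent of each other.

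Blocks also had a higher share of their contacts with other chromosomes in RIS. These shares are a description, since contact within a chromosome, which chose the blocks, is most of their total. They also hold the general shift towards contacts between chromosomes, which short B runs and A runs had too. The share of balanced contact that block bins had with blocks of other chromosomes was 2.02%, 2.32% and 2.05% in growing cells and 4.34% in both RIS libraries. With blocks chosen from growing replicate 1 it was 2.36% and 2.07% in the other growing libraries and 4.44% in both RIS libraries, where the smallest possible exact permutation p is 0.333. The share with the rest of the other chromosomes was 5.89%, 6.29% and 5.84%, and 8.32% and 8.65% in RIS. The share kept inside the own block was 65.5%, 63.8% and 64.4%, and 57.4% and 59.3% in RIS. Block bins gave 7.91%, 8.60% and 7.89% of their contact to all other chromosomes in growing cells, below the 9.35%, 9.80% and 9.07% of short B runs, and 12.7% and 13.0% in RIS, above the 12.2% and 12.5% of short B runs. A runs gave 9.43%, 9.32% and 9% in growing cells and 10.9% and 10.2% in RIS. With blocks chosen from growing replicate 1, long blocks gave 8.55% and 7.84% in the other growing libraries, against 9.76% and 9.03% of short B runs, and 12.6% and 13.0% in RIS, against 12.2% and 12.4%.

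Contact between blocks of one chromosome, which entered the choice of the blocks, is first given as a description. It was 1.24, 1.27 and 1.22 in growing cells and 1.61 and 1.68 in RIS, a difference of 0.40. Short B runs of one chromosome, all pooled, differed by 0.05 on the same scale. The longest of them were closer to the blocks, since contact with long blocks of the same chromosome differed by 0.25 in runs of 17 to 24 bins and by 0.23 in blocks of 25 to 32 bins. Blocks and A runs of one chromosome met less in RIS, with values from −1.27, −1.26 and −1.14 to −1.64 and −1.66. With A runs of other chromosomes the blocks had −1.38, −1.37 and −1.30 in growing cells and −1.42 and −1.22 in RIS, which overlapped and differed by 0.03 (exact permutation p = 0.8).

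To test contacts within a chromosome on libraries that had not chosen the blocks, blocks were chosen again from growing replicate 1 alone. This gave 107 blocks, and growing replicates 2 and 3 were compared with RIS, where the smallest p of a two-sided exact permutation test is 0.333. Contact between these blocks on one chromosome was 1.29 and 1.23 in growing cells and 1.62 and 1.69 in RIS. These values did not overlap (exact permutation p = 0.333). Contact of these blocks with A runs of one chromosome was −1.22 and −1.09 in growing cells and −1.60 and −1.62 in RIS. These did not overlap either (exact permutation p = 0.333). Limma on these 4 libraries called 174 of 277 pairs of blocks higher and 22 lower, where 12.2% of all 37784 pairs of runs were called higher and 25.2% lower. Among the pairs of blocks, higher calls were thus the majority. Centring each library on its median over all pairs of runs of the 3 against 2 fit moved the median of all same-chromosome pairs from −0.13 to 0.02, and that of the blocks' pairs from 0.47 to 0.62. Over all pairs it turned the split of calls from 5199 higher and 10806 lower to 8198 and 7678.

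The difference between blocks of one chromosome was larger at greater distances. Under 10 Mb, contact was 1.14, 1.15 and 1.11 in growing cells and 1.4 and 1.47 in RIS, a difference of 0.30. From 10 to 20 Mb and from 20 to 40 Mb the differences were 0.37 and 0.38. From 40 to 80 Mb the difference was 0.56, and at 80 Mb and more contact was 0.74, 0.79 and 0.72 in growing cells and 1.55 and 1.64 in RIS, a difference of 0.85. In growing cells contact was thus weaker at 80 Mb and more than near by, and in RIS it was at least as high there as under 10 Mb. The balanced contact per pair of bins, with no division by the expected value, was 1.09 times as high in RIS under 10 Mb, 1.39 times at 20 to 40 Mb, 2.18 times at 40 to 80 Mb and 2.89 times at 80 Mb and more. The expected value itself was 0.885 times as high under 10 Mb and 1.61 times as high at 80 Mb and more, so the mean over all bins of a chromosome was higher at long range as well. In the blocks chosen from growing replicate 1, the differences in the other libraries ran from 0.30 under 10 Mb to 0.87 at 80 Mb and more, each without overlap (exact permutation p = 0.333, the smallest possible).

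Inside a block the sign of the difference depended on distance. Over all pairs of bins at least 240 kb apart the mean over blocks was 0.305, 0.286 and 0.300 in growing cells and 0.189 and 0.238 in RIS, a difference of −0.083, while short B runs stood 0.045 higher on average and A runs overlapped. The lower value was shared by the longer of the short B runs, with −0.086 in those of 17 to 24 bins, 70 of 101 being lower. Among B runs with 37% GC or less, those of 10 to 24 bins differed by −0.158 and long blocks by −0.155. Between 240 kb and 1 Mb the difference was −0.12, and the balanced contact per pair of bins was 0.848 times as high. The expected value itself was 0.920 times as high there. From 1 to 2 Mb and from 2 to 3 Mb the libraries overlapped, with differences of −0.06 and 0.03. Balanced contact per pair of bins was still lower in RIS at these distances, without overlap. It was 0.869 and 0.931 times as high, and the expected value 0.906 and 0.913 times. From 3 to 6 Mb contact was 1.26, 1.23 and 1.16 in growing cells and 1.36 and 1.48 in RIS, and beyond 6 Mb it was 1.03, 1.04 and 0.98 against 1.5 and 1.61. The value beyond 6 Mb rests on the longest blocks alone and on 1702 pairs of bins.

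With blocks chosen from growing replicate 1, contact within blocks was 0.271 and 0.285 in the other growing libraries and 0.170 and 0.220 in RIS, again a difference of −0.083 without overlap (exact permutation p = 0.333). By distance it ran from −0.12 below 1 Mb to 0.55 beyond 6 Mb. Limma on these 4 libraries called 64 of 107 blocks lower and 14 higher, where 17.7% of all 1296 runs were called lower and 34.8% higher. Pairs of bins 9 or more bins apart, about 1 Mb, left a difference of −0.011 over the 106 blocks with overlapping libraries. On the observed/expected scale the lower contact within blocks thus lay in the shorter distances.

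**Figure D2:**
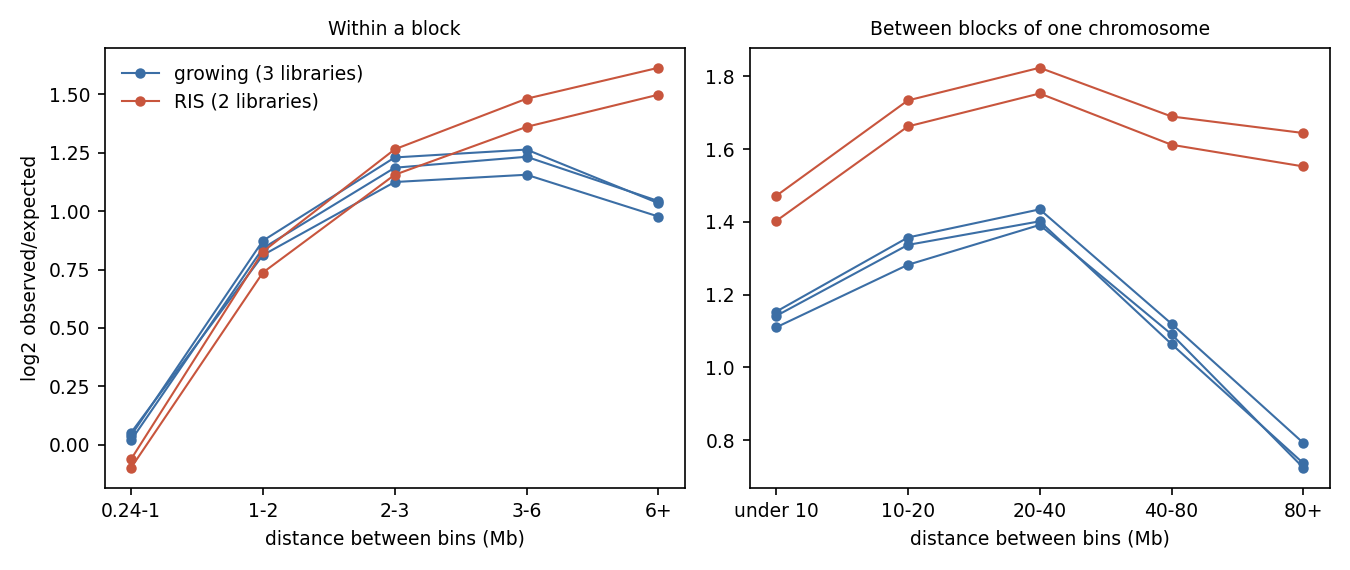
Contact within long B blocks (left) and between long B blocks of one chromosome (right) by distance between bins, as log2 observed/expected. Each line is 1 library. Within blocks RIS lies below growing under 1 Mb and above it beyond 3 Mb, and between blocks the gap widens from 0.30 under 10 Mb to 0.85 at 80 Mb and more.

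Among the blocks, the difference in contact with other chromosomes followed base composition. In the 58 blocks with 37% GC or less, mean contact with blocks of other chromosomes was 0.19, 0.36 and 0.31 in growing cells and 1.22 and 1.25 in RIS. All 58 were higher in RIS without overlap, by 0.35 to 1.47, where 41.8% of all 1305 runs of 5 bins or more were. At the same GC content, the means of B runs of 10 to 24 bins and of A runs of 5 to 9 bins were also higher. They differed by 0.75 and 0.43 without overlap. In the 30 blocks between 37 and 40% the mean went from 0.20, 0.35 and 0.29 to 0.77 and 0.82, and 29 were higher, the exception being the chromosome 17 block that went against its label. In the 18 blocks above 40% it was 0.31, 0.39 and 0.32 in growing cells and 0.18 and 0.24 in RIS, with 9 blocks higher and 9 lower. The difference was thus 0.95, 0.52 and −0.13 in the 3 classes, with an exact permutation p of 0.1, the smallest possible, in each. The last value rests on 2 blocks, on chromosomes 19 and 22. They had the lowest densities of HindIII sites among the 106, 19.0 and 21.4 per 100 kb against a median of 31.9. Without them, an alternative chosen after seeing the data, the other 16 had 0.27, 0.36 and 0.28 in growing cells and 0.25 and 0.31 in RIS, which overlapped and differed by −0.02. Across the 106 blocks the change and the GC content had Pearson's r = −0.89 and Spearman's rho = −0.80, a description over blocks that share their libraries and partners. The relation was not particular to the blocks. For contact with the same blocks, r was −0.80 over 635 short B runs and −0.69 over 564 A runs. Across the blocks, r with the density of HindIII sites was 0.59 and rho 0.47, and the part of site density in the result was not tested.

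Contact within blocks, given as a description, ran the other way. It differed by −0.15 in the blocks with 37% GC or less, where 56 of 58 were lower in RIS, and by −0.03 with overlap in the middle class. In the blocks above 40% it differed by 0.06, and 15 of 18 were higher. Short B runs above 40% were higher too, by 0.14 in runs of 5 to 9 bins and 0.09 in runs of 10 to 24. Of all short B runs 418 of 635 were higher within the run and 217 lower. For A runs these counts were 368 and 195 of 563. Over the 106 blocks r with GC content was 0.69 for the change within the block. Over short B runs it was 0.51, and over A runs it had the other sign, at −0.57. In the blocks, the changes within blocks and with other chromosomes had r = −0.70. Balancing evens out the totals of bins, so these changes are not independent of each other. The part of balancing in this relation was not tested.

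**Figure D3:**
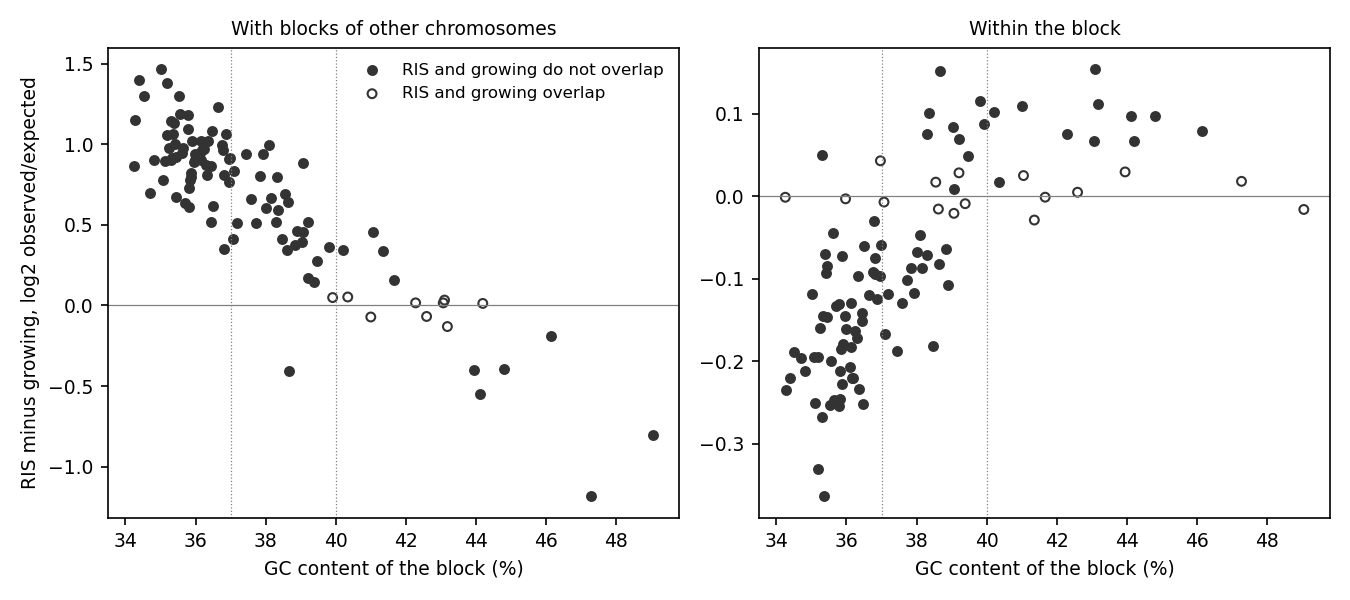
Difference between RIS and growing in log2 observed/expected against the GC content of each of the 106 blocks, for contact with blocks of other chromosomes (left) and within the block (right). Filled points are blocks whose RIS and growing libraries do not overlap, and dotted lines mark 37% and 40%. Contact with other chromosomes is higher in RIS for all 58 blocks at or below 37%, and the lowest values, −1.19 and −0.81, belong to blocks at 47.3% and 49%.

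Coverage before balancing, which can also depend on base composition, moved little on average. Recovered contacts per bin were taken as log2 against the median bin. They differed by −0.036 in the blocks with 37% GC or less, −0.016 in the middle class and 0.028 in those above 40%. Libraries overlapped in each class. By block, coverage was lower in RIS in 55 and higher in 3 of those with 37% GC or less. Above 40% it was higher in 13 and lower in 5. Across blocks this change in coverage and the change with other chromosomes had r = −0.65, and the part of coverage in the result was not tested. Counted on recovered contacts without balancing, the difference between the blocks with 37% GC or less was 1.04 against 1.15 on balanced values. On the same recovered contacts, pairs of blocks above 40% had 0.77, 0.78 and 0.74 in growing cells and 0.83 and 0.89 in RIS, which did not overlap.

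Contact between chromosomes also varied with the composition of the partner. Pairs of different chromosomes in which both blocks held 37% GC or less had a contact of 0.49, 0.70 and 0.59 in growing cells and 1.74 and 1.75 in RIS, a difference of 1.15. Of 1546 such pairs tested of 1547, limma called 1447 higher, or 93.6%, and 0 lower, where 15.0% and 8.55% of all pairs of runs were called higher and lower. When a block of 37% or less was paired with a block above 40%, contact was 0.06, 0.14 and 0.08 in growing cells and −0.31 and −0.18 in RIS, a difference of −0.34, and of 850 pairs tested of 1010, 200 were called lower and 22 higher. Without the same 2 blocks of chromosomes 19 and 22 this difference was −0.25, still with no overlap. Pairs of blocks above 40% already had a high contact in growing cells, 1.12, 1.21 and 1.10, and overlapped with RIS, at 1.23 and 1.18. Without these 2 blocks they did not overlap, with 1.00, 1.08 and 0.94 in growing cells and 1.20 and 1.16 in RIS. Contact among AT-rich blocks was thus higher in RIS, and pooled contact of AT-rich with GC-rich blocks was lower. Lower calls were uneven among the 18 blocks above 40%. Over all partners, the median such block had 5.34% of its pairs called lower and 2.1% higher. The share called lower was 82.5% and 72.2% in the blocks of chromosomes 19 and 22 left out above. At chr17:30720001-34560000, chr17:8280001-12240000 and chr19:27720001-34680000 it was 45.0%, 36.3% and 30.0%. Whether contact among GC-rich blocks overlapped varied with the 2 blocks left out and with balancing.

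Pairs in the middle fell between these. Blocks of 37% or less with blocks of 37 to 40% differed by 0.61, middle blocks among themselves by 0.57, and middle blocks with those above 40% by −0.001 with overlap. Along one chromosome the order was alike, as a description, with 0.54 for pairs of 37% or less, −0.44 for those pairing 37% or less with above 40%, and 0.29 for the 6 pairs above 40%.

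**Figure D4:**
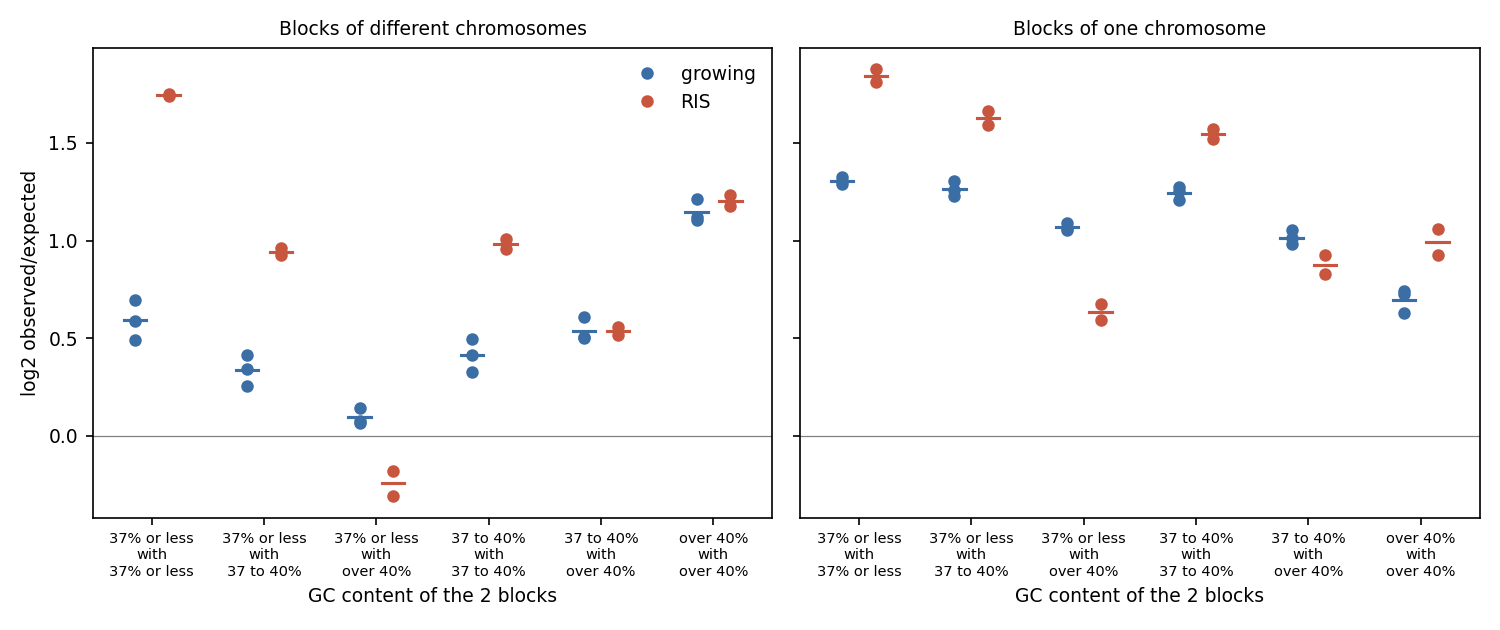
Contact between blocks of different chromosomes (left) and of one chromosome (right) by the GC content of both blocks, as log2 observed/expected. Each point is 1 library, growing in blue and RIS in red, and bars are group means. Between chromosomes, pairs at or below 37% lie at 0.49 to 0.70 in growing cells and at 1.74 and 1.75 in RIS, and pairs of 37% or less with above 40% lie lower in RIS.

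The A runs that blocks met on other chromosomes were sorted by composition too. Blocks of 37% or less met A runs of 40% or less at −1.24, −1.24 and −1.16 in growing cells and at −0.88 and −0.75 in RIS, a difference of 0.40 without overlap (exact permutation p = 0.1). With A runs of 40 to 44% the difference was −0.01 and with those above 44% it was −0.25, both with overlapping libraries. On one chromosome, as a description, the blocks of 37% or less met A runs of every class less in RIS. The differences were −0.24 at 40% or less, −0.65 at 40 to 44% and −0.95 above 44%. Contact within a chromosome chose the blocks, so these are no separate test.

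Differences also varied with the length of a run. The trans contact of B runs with long B blocks differed by −0.04 for runs of 5 to 9 bins, 0.13 for 10 to 16, 0.45 for 17 to 24, 0.60 for 25 to 32, 0.62 for 33 to 41 and 0.73 for 42 bins and more. The rule's limit was not a step, since the 12 runs of 24 bins just outside it differed by 0.61 and the 10 blocks of 25 bins just inside it by 0.54. Contact with long blocks of the same chromosome differed by 0.42 just outside and 0.13 just inside, the latter over 8 blocks with a partner, and contact within the run by −0.14 and −0.05. Within 37% GC or less, B runs of 5 to 9 bins differed by 0.52, those of 10 to 24 bins by 0.75 and the long blocks by 0.95. Above 40%, B runs of 5 to 9 bins differed by −0.33 and the long blocks by −0.13. A runs of 37% or less and 5 to 9 bins differed by 0.43, closer to B runs of the same length and composition than to A runs above 40%, at −0.16.

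**Figure D5:**
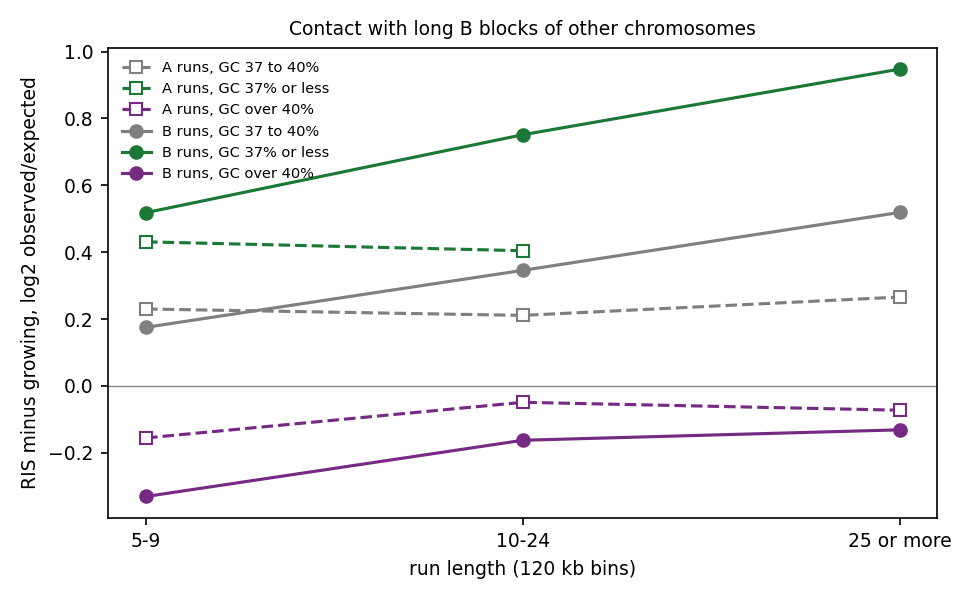
Difference between RIS and growing in contact with long B blocks of other chromosomes (log2 observed/expected) by run length in 120 kb bins, for B runs (filled points, solid lines) and A runs (open squares, dashed lines) of 3 GC classes. Points are means over runs. Within each length the classes keep their order, from 0.95 for long B runs at or below 37% to −0.13 for those above 40%, and within a class B runs have higher values at greater length.

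The longest block, chr5:17400001-27240000, spans 9.84 Mb at 35.4% GC and carries the cadherin genes CDH18, CDH12 and CDH9, which code for adhesion proteins of nerve cells. Its contact with blocks of other chromosomes was 0.80, 1.01 and 0.87 in growing cells and 1.81 and 1.82 in RIS. Both RIS libraries were higher by about the same amount. Its contact within the block was 0.242, 0.222 and 0.238 and then 0.134 and 0.167.

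The next longest, chr2:75960001-84960000, holds CTNNA2, an alpha-catenin of nerve cells, and the synapse organiser LRRTM4, and went from 0.59, 0.83 and 0.67 to 1.31 in both RIS libraries. At chr6:91080001-99840000, with the ephrin receptor gene EPHA7 and the fucosyltransferase gene FUT9, contact was −0.05, 0.18 and 0.13 in growing cells and 0.96 and 1.02 in RIS. The only block of chromosome 21, chr21:18960001-27240000, with the adhesion gene NCAM2, had 1.30, 1.44 and 1.28 and then 2.29 and 2.28. At chr8:108600001-116400000, with CSMD3 and the Wnt agonist gene RSPO2, contact was −0.03, 0.14 and 0.15 and then 1.21 and 1.22. All 5 longest blocks were AT-rich and none of their RIS values overlapped the growing ones. The same held for all 58 blocks with 37% GC or less, so this is no trait of the longest. Of all 1305 runs of 5 bins or more, 41.8% were higher without overlap.

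The blocks with the highest differences between chromosomes, named after their values were seen, had low contact in growing cells. At chr3:162120001-167640000, which holds the gene SI for the intestinal sugar-digesting enzyme sucrase-isomaltase, contact went from −0.60, −0.37 and −0.39 to 0.99 and 1.04, a difference of 1.47. At chr2:193080001-196200000, in which no protein-coding gene has its midpoint, it went from −0.74, −0.55 and −0.40 to 0.80 and 0.87. At chr2:183960001-187320000, with the zinc finger gene ZNF804A, it went from −0.77, −0.66 and −0.51 to 0.69 and 0.77. These blocks met other blocks less than the mean pair of bins on different chromosomes in growing cells and more than that in RIS. The blocks at chr4:133080001-138000000, with the protocadherin gene PCDH10, and chr4:160440001-164400000, with FSTL5, followed with 1.30 each.

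The blocks with the lowest values were rich in GC, apart from the block of chromosome 17 that went against its label. At chr19:50400001-54600000, which holds 126 protein-coding genes, many of them for zinc finger proteins such as ZNF83 and ZNF577, contact with blocks of other chromosomes was 0.47, 0.51 and 0.56 in growing cells and −0.70 and −0.65 in RIS. At chr22:47160001-50160000, with the secreted protein gene TAFA5, it was 0.74, 0.84 and 0.73 and then −0.01 and −0.06. At chr17:30720001-34560000, with the acid-sensing channel gene ASIC2, it was 0.30, 0.37 and 0.35 and then −0.24 and −0.19. The values did not overlap in any of them. Recovered coverage of these 3 blocks was higher in RIS by 0.063, 0.074 and 0.066, also without overlap. In the first 2 it was far below that of the median bin, at −1.28 to −1.12 on the log2 scale. Coverage was higher without overlap in 9 of 106 long blocks, 205 of 635 short B runs and 109 of 564 A runs. It was lower without overlap in 22, 64 and 46 of them. Its part was not tested. The other zinc finger block of the chromosome, chr19:19800001-24720000, kept 1.12, 1.20 and 1.07 against 1.08 and 1.04, which overlapped, and its contact within the block was 0.641, 0.564 and 0.638 and then 0.702 and 0.746.

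Contact within blocks, given as a description since it entered the choice of the blocks, was ranked among blocks whose RIS and growing libraries did not overlap. It differed most at chr6:102240001-105480000, with the ubiquitin ligase gene HACE1. It was 0.170, 0.138 and 0.132 in growing cells and −0.264 and −0.171 in RIS. The ZNF804A block had 0.450, 0.437 and 0.466 and then 0.068 and 0.174, and the block of the glypican gene GPC5 at chr13:87840001-93840000 had 0.141, 0.125 and 0.153 and then −0.158 and −0.096. Their contact with other chromosomes was higher in RIS, by 1.07, 1.38 and 1.14. The block at chr5:98280001-102000000, with the transporter genes SLCO6A1 and SLCO4C1, and the FSTL5 block followed, by −0.254 and −0.252 within the block. At the other end, chr14:96840001-99840000, with the transcription factor gene BCL11B, had 0.422, 0.426 and 0.411 within the block and then 0.565 and 0.584. The AUTS2 block at chr7:66840001-72120000 had 0.448, 0.446 and 0.462 and then 0.552 and 0.576. In both, contact with other chromosomes overlapped between the groups, as it did in the zinc finger block at chr19:19800001-24720000, the last of the 5 highest. It did not overlap in the second and the third of the ranking. The chromosome 17 block that went against its label was higher by 0.152 within the block and lower with other chromosomes, by −0.40. The block at chr9:119520001-123120000, with the gene TLR4 of a receptor of innate immunity, was higher by 0.116 within the block and by 0.36 with other chromosomes.

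Of all pairs of blocks of different chromosomes called by limma, the highest change joined the PCDH10 block to chr13:67920001-72120000, with the gene KLHL1. The pair had −0.59, −0.34 and −0.09 in growing cells and 2.04 and 2.02 in RIS, a log2 change of 2.37 (SE 0.22, limma adjusted p = 0.0013). The lowest joined chr3:81840001-87000000, with the adhesion gene CADM2, to the zinc finger block at chr19:50400001-54600000, with 1.24, 0.57 and 0.36 and then −2.16 and −2.01 (change −2.81, SE 0.28, limma adjusted p = 0.00156). All 5 highest pairs joined blocks under 36% GC, and all 5 lowest joined such a block to the chromosome 19 or chromosome 22 block. Adjusted p-values of the 10 pairs lay between 0.0013 and 0.00177.

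On one chromosome, where the values are a description, the highest change joined the CTNNA2 block to chr2:208800001-213840000, which holds the growth factor receptor gene ERBB4. They lie 123.84 Mb apart, and their contact went from 0.40, 0.34 and 0.16 to 1.79 and 1.91. The other 4 highest pairs were on chromosomes 2 and 3 with gaps of 75.12 to 138.96 Mb. The lowest joined chr1:174240001-177960000, with the gene TNR of the brain's extracellular matrix, to the chr1:187440001-192000000 block that met A runs and blocks about equally, and went from −0.44, −0.29 and −0.11 to −1.79 and −1.60. The other 4 lowest pairs each joined a block under 37% GC to one above 41%.

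By chromosome, contact of the blocks with blocks of all other chromosomes was higher in RIS without overlap on 20 of the 22 autosomes. Chromosome 13, with 3 blocks, had the largest difference, 1.04, from 0.53, 0.68 and 0.59 to 1.63 and 1.64. Chromosome 21 followed with 0.94 from a single block, and chromosome 9 had 0.91. Chromosome 17 differed by 0.09, from 0.60, 0.67 and 0.61 to 0.71 and 0.72. The 2 exceptions were chromosome 19, with 0.75, 0.81 and 0.70 and then 0.37 in both RIS libraries, and chromosome 22, whose 1 block is given above. Within a chromosome, blocks of chromosomes 16 and 17 had lower contact in RIS, by −0.08 and −0.15.

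Genes in the blocks were counted from lists chosen for this tissue and for long silent genes. Of 33 very long or neuronal adhesion genes, 21 lay in long B blocks, where 5.31% of all 19222 protein-coding genes did. They lay in 17 blocks, whose mean contact between chromosomes was higher in RIS in each, as in 96 of all 106 blocks, so this is near the background. The difference ran from 0.02 for the block of WWOX, at 42.3% GC and with overlapping libraries, to 1.18 for that of CNTN5, which codes for an adhesion protein, at 35.8%. Of the genes in blocks, 7.05% were 500 kb or longer, and of those in A runs 0.77%. Length is one reason genes were listed, so the first count is a description of where such genes lie.

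The other lists had a smaller share of their genes in the blocks than this one. Cell cycle genes had 15.8%, genes of the senescence-associated secretory phenotype and glutamate and GABA receptor subunits 11.1% each, and olfactory receptors 7.73%. Of all 19222 protein-coding genes, 11164 lay in A runs and 5.31% in long B blocks. Glutamate and GABA receptor subunits had 2 of 18 there, GABRG1 and GABRA2 in 1 block on chromosome 4 with a difference of 0.52, and olfactory receptors 32 of 414 in 3 blocks, at 0.61 to 0.94. Of 27 genes of the senescence-associated secretory phenotype, 22 lay in A runs and 3 in a long B block, the chemokine genes CCL2, CCL7 and CCL8 at chr17:30720001-34560000. That block was among the GC-rich ones with lower contact between chromosomes in RIS, at −0.55, while contact within it was 0.266, 0.252 and 0.275 in growing cells and 0.374 and 0.350 in RIS. Of 19 cell cycle genes, MCM3, MKI67 and CCNE1 lay in blocks, which differed by 0.41, −0.19 and −0.40 between chromosomes. None of 18 fibroblast genes or of 14 lamina and heterochromatin genes did.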

How the data were processed

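The deposited files held, per library, a list of pairs of 40 kb bins with an ICE-balanced contact value, in which the authors had made the unit a balanced signal and not a count. Per the labels and the methods, reads were mapped to hg19 and filtered with HiC-Pro, artefacts and duplicates were removed, and the pairs were balanced. FastQC was used for quality checks. Balancing divides out the coverage of a bin, and whole contacts could be recovered from the values in each of the 5 Hi-C libraries, which gave the depths. The 4 capture Hi-C samples of the series were not used.

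Values were summed to 120 kb bins. Scores were the first principal component of the correlation matrix of observed over expected values on each autosome, from the mean of 3 growing libraries. Pairs within a run were taken at least 240 kb apart. Group means were compared by a two-sided exact permutation test over the libraries, which for 3 against 2 has 10 assignments. Across all runs of 5 or more bins, and all pairs of them, log2((balanced sum + 0.5)/expected sum) was tested with limma 3.58.1 (R 4.3.3) and Benjamini-Hochberg adjustment at 0.05, with a mean balanced sum of at least 20. The files are balanced values, so no count model was used. The limma step was tested on simulated tables of 1304, 40338 and 89034 rows. These are the sizes of the fits on recovered contacts, while those on balanced values had 1305, 38067 and 65128 rows. Changes of 2-fold were found in 100% of runs, 93% of pairs on one chromosome and 43% of pairs on different chromosomes. Changes of 4-fold were found in 99% or more. The simulation does not cover smaller changes, such as those within blocks. Correlations across blocks are descriptions and carry no p.

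Sequences and genes came from the hg19 reference and its GENCODE annotation, and a gene was placed by its midpoint. Sequence windows of the AT-rich blocks are not reported here. Python 3.11.15 with numpy 2.4.6, pandas 2.3.3 and matplotlib 3.10.9 was used. The members and gene lists were chosen with earlier results of these data known. Blocks were named from the 5 longest. Named too were the 5 highest and 5 lowest changes within the block, among blocks whose RIS and growing libraries did not overlap. Pairs were named from the 5 highest and 5 lowest of those called. Up to 3 of the longest genes were taken per block. The 5 highest and 5 lowest blocks in contact between chromosomes and the GC classes were chosen after their values were seen. Alternatives were other bin, length and distance limits, other ways of choosing blocks, recovered contacts in place of balanced values, other filters and centring, the libraries of like duplication, the replicate number as a block, and each library left out.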

Additional observations from a re-analysis of the deposited data

How the results depend on the processing

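Of 197 alternative values computed, 6 reversed direction and 8 counts of calls were lower by more than 1.5 times. No exact test on these libraries can pass 0.05, so p-values say nothing about the stability of the differences. With bins 9 or more apart, contact within blocks differed by −0.0114 with overlapping libraries. Contact between blocks of different chromosomes differed by 0.56 to 0.86 over the alternatives that kept all libraries or compared those of like duplication and by 0.65 to 0.73 with 1 library left out, between blocks of one chromosome by 0.34 to 0.47 and 0.36 to 0.43, and within blocks by −0.11 to −0.01 and −0.11 to −0.06. The difference between blocks and A runs of other chromosomes, 0.03 with overlapping libraries, reversed to −0.0804 with blocks chosen from RIS, −0.0063 with blocks chosen from growing replicate 1, −0.0434 among libraries with few duplicates and −0.0699 without RIS replicate 2, and was at most 0.1307 with 1 library left out, without RIS replicate 1. The share of contact with the rest of the chromosome, also overlapping, reversed to 0.95 for runs of 42 or more bins and 0.15 among libraries with few duplicates. The cause was not tested. With 1 library left out, the calls ranged from 645 to 722 within runs, from 9985 to 14091 on one chromosome and from 7611 to 11158 between chromosomes. Without RIS replicate 1 or RIS replicate 2 a single RIS library is assumed to vary like the growing ones, and 9985 and 10487 pairs on one chromosome and 8487 and 7611 between chromosomes were called, against 16005 and 15324. Runs of 10 or more bins gave 472 calls within runs and 7298 on one chromosome, from fewer runs. A mean balanced sum of 100 or more left 5311 pairs between chromosomes with 3038 calls. With no filter, limma called 0 of 799700 pairs, and 84633 passed an unadjusted p under 0.05. None of the 5289 pairs of blocks was called there, and the cause was not tested.

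The labels do not say that a replicate number marks a shared culture or day. The deviations of same-numbered libraries over 106 blocks had correlations of 0.10 and −0.51, but with 2 RIS libraries these deviations mirror each other, so they do not settle whether the numbers pair the samples. With the replicate number as a block the differences were −0.08 within blocks, 0.39 between blocks of one chromosome and 0.69 between blocks of different chromosomes, and 658, 12278 and 11050 calls were made.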
